A study of Mus musculus with 6 samples.

Results

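Flox-only 5hmC regions between genes are places with their midpoint outside every protein-coding gene where a peak of 5-hydroxymethylcytosine (5hmC) was listed in both libraries of Tet2 flox cells and in neither library of Tet2 KO cells. To find them, the peaks of the 4 lists were pooled, peaks that shared 1 bp or more were merged, and autosomal regions whose midpoint lay outside all RefSeq protein-coding gene spans were kept. This gave 2834 flox-only regions among 103207 autosomal regions between genes (2.75%), and among 171780 autosomal regions in all. The regions were selected on the presence and absence of peaks in these same lists, so their number, scores and widths are described here and not tested.

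The cells were bone marrow cells of C57BL/6 mice enriched for Kit, from the genotype Tet2fl/fl;CreER, in which Cre recombinase becomes active when 4-hydroxytamoxifen (4-OHT) is given. All had been transduced with the retrovirus MigR1-AE-IRES-GFP, which carries AML1-ETO, a leukaemia fusion protein made from the AML1 (Runx1) and ETO genes, and were grown with SCF, IL-3 and IL-6. Flox cultures (Tet2fl/fl, 2 libraries) received ethanol, and KO cultures (Tet2-/-, 2 libraries) received 200 nM 4-OHT for 2 passages (4 days), so 4-OHT, Cre activity and Tet2 deletion came together and their effects cannot be told apart. At passage 5, GFP+ and CD16/32+ cells without CD11b and Gr1 were sorted as immature myeloid cells, and DNA fragments bound by an antibody to 5hmC were sequenced. Both groups express AML1-ETO, so the flox cells stand for fusion-bearing cultured cells and not for normal marrow. Peak lists hold no expression values, and the sorted cell type was not checked against its markers. The labels do not say whether the 2 libraries of a group came from separate cultures or animals, so the spread between them may be technical.

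The TET enzymes, of which TET2 is the member most often mutated in myeloid leukaemia, make 5hmC by oxidising 5-methylcytosine, mostly where a C is followed by a G. In blood cells 5hmC is known from the bodies of active genes and from enhancers, DNA elements that raise the expression of a gene from a distance and that often lie between genes. A peak is a stretch where fragments pile up above the background in 1 library, and its score is the negative log10 of the peak caller's p-value, times 10. The lowest score in the lists was 50, so a region without a peak may still hold weaker signal. The lists held 116539 to 122101 peaks, and the number of reads behind them was unknown.

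Where a flox-only region reached the start of an annotated gene, RefSeq gives the sequence under it. A start window (250 bases before to 50 bases after a start, build GRCm38) lay whole inside 27 of the 2834 flox-only regions (0.953%). The same was true of 17 KO-only regions (0.519%), of 15 to 30 regions of each mixed pair of 1 flox and 1 KO library (0.598% to 0.889%), and of 631 regions called in all 4 libraries (constant regions, 1.55%). The flox-only regions covered starts of 28 genes, of which 12 were protein-coding and 16 were not. Shown here, 5′ to 3′ on the gene's strand, are the 250 bases before the start for the 2 highest ranked regions at protein-coding genes and the 2 highest ranked at other genes, with each CG in capitals because this is where 5hmC can form.
Nynrin: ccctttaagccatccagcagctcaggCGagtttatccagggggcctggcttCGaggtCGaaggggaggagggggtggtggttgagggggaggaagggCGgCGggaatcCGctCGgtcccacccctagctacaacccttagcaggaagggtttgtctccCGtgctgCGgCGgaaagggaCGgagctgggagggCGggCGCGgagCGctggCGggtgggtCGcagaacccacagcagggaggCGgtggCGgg
Gtsf1: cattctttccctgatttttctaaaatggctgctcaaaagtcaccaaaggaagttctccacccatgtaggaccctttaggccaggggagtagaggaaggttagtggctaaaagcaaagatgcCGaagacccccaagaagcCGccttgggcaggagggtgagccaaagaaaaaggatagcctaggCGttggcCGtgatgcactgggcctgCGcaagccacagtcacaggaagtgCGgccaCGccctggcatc
Gm34597: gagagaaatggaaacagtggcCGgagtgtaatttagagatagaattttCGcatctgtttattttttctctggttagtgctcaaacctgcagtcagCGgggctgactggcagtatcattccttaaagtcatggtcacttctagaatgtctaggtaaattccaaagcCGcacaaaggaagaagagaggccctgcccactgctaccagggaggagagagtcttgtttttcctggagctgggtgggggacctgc
Gm51883: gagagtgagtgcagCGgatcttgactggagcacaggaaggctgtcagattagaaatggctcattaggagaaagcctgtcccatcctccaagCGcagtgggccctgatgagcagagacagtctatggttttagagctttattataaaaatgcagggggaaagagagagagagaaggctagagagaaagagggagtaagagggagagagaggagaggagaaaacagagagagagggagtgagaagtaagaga
The 250 bases of Nynrin (chr14:55853865-55854114, plus strand) hold 19 CG. Those of Gtsf1 (chr15:103430428-103430677, minus strand), a gene of the small RNA pathway that silences transposons in germ cells, hold 7. The 250 bases of the lncRNA genes Gm34597 (chr8:35235666-35235915, minus strand) and Gm51883 (chr11:4700194-4700443, plus strand) hold 4 and 2. With the 50 bases after the start included, the whole windows hold 22, 13, 4 and 3 CG in the same order.

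The gene starts under flox-only regions ranged from CG-free to CG-rich. Their 29 windows of 300 bases held 0 to 26 CG, with a median of 9. The median was 9.5 under KO-only regions, 5.5 to 15.5 under the mixed pairs and 7 over all 31396 autosomal windows. The richest belonged to B4galt1, a galactosyltransferase gene, with 26 CG and flox scores of 74.02 and 78.68. Others were the windows of Dpf2, a subunit of the BAF chromatin remodelling complex (20 CG, scores 54.87 and 99.97), and Cst3, which encodes the protease inhibitor cystatin C (13 CG, scores 86.69 and 68.59). The core letters of the RUNX motif, TGTGGT or ACCACA on the other strand, stood in 3 of the 29 windows (10.3%), and in 16.7% of all windows. The GATA letters AGATAA or TTATCT stood in 3 of 29 (10.3%), and in 11.2% of all windows.

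Most flox-only regions between genes were low, narrow peaks. Flox replicate 1 had a median score of 68.0 at these regions and flox replicate 2 a median of 70.2. Over all their peaks between genes the medians were 93.5 and 92.3. Of the 2834 regions, 780 (27.5%) had a lower score under 55, just above the floor of the lists. The lower of the 2 scores ranged from 50 to 168, with quartiles of 54.4 and 70.4. Just inside the rule stood regions near Ccnd2 and Slco3a1, where 1 flox library scored 50 and the other 50.33 and 60.2. Just outside stood a region near Arrdc4, called in both flox libraries (64.25 and 120.79) and in KO replicate 2 with a score of 50. In all, 7949 regions between genes were called in both flox libraries and in 1 KO library, and in 662 of them the KO score was under 55. Rank correlation between the 2 flox scores was weak (Spearman 0.131 over 2834 regions, as a description), beside 0.103 to 0.124 for the mixed pairs.

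Regions of other library pairs serve as the measure of noise, since a region called in 1 flox and 1 KO library and in no other cannot be a difference between the groups. Of the 103207 regions between genes, 2693 (2.61%) were called in flox 1 and KO 1, 3375 (3.27%) in flox 1 and KO 2, 2507 (2.43%) in flox 2 and KO 1 and 3230 (3.13%) in flox 2 and KO 2. KO-only regions numbered 3276 (3.17%). The 2834 flox-only regions (2.75%) lie inside the range of the mixed pairs. Median width was 924 bp, against 903 bp for KO-only regions, 897 to 917 bp for the mixed pairs and 1278 bp for regions called in all 4 libraries. The lower score had a median of 60.3, against 60.2 for KO-only regions and 60.04 to 61.01 for the mixed pairs. By number and score these regions are therefore not set apart from the noise, by median width they exceed it by a few bp, and a single one of them cannot be read as a loss of 5hmC.

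Flox-only regions lay nearer to gene ends than the regions of the mixed pairs. Of the flox-only regions, 20.8% lay within 10 kb of a gene end (589 of 2834, 95% Wilson interval 19.3 to 22.3), and 37.6% lay over 100 kb away (35.8 to 39.4). The mixed pairs had 16.6% to 19.1% within 10 kb and 41.4% to 45.7% over 100 kb, so the flox-only value lay outside both ranges. Within 10 kb the flox-only interval overlapped those of the 2 mixed pairs with KO replicate 1 (16.7 to 19.6 and 17.7 to 20.7). Over 100 kb the flox-only interval overlapped that of no mixed pair. KO-only regions had 16.2% and 43.6%, and regions called in all 4 libraries had 19.6% and 35.5%. The median distance was 51970 bp for flox-only regions, 73478 bp for KO-only regions and 63442 to 80863 bp for the mixed pairs. For regions called in all 4 libraries it was 50615 bp, so a short median distance was not particular to the flox-only regions. The intervals cover counting error over regions only, and 2 libraries against 2 allow no test that would call this a difference between flox and KO cells.

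**Figure D1:**
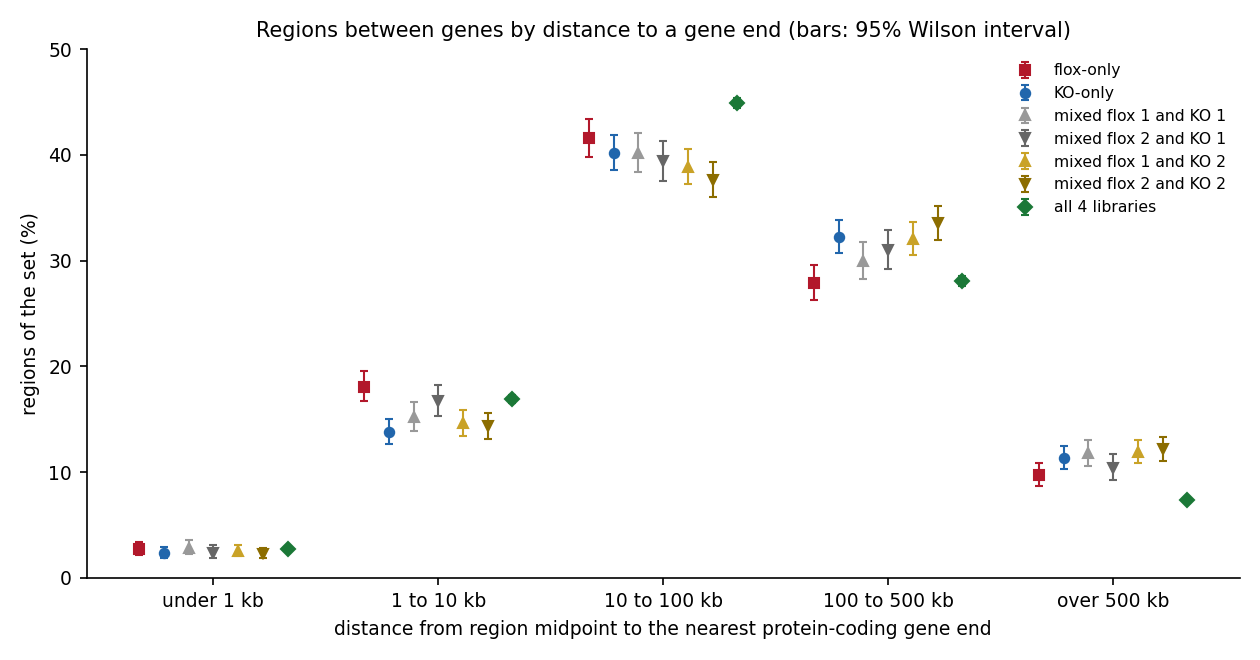
Share of regions between genes (y axis, percent of the set) in 5 classes of distance from the region's midpoint to the nearest protein-coding gene end (x axis), for flox-only, KO-only, mixed-pair and constant regions. Points are shares and bars are 95% Wilson intervals; from 1 to 10 kb the flox-only share (18.1%) is above those of the 4 mixed pairs, and at 100 to 500 kb (27.9%) it is below them.

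By class, 77 flox-only regions lay under 1 kb from a gene end, 512 at 1 to 10 kb, 1179 at 10 to 100 kb, 790 at 100 to 500 kb and 276 over 500 kb. Set against the sequence in each class, this was 2.31 regions per Mb under 1 kb, 2.52 at 1 to 10 kb, 2.23 at 10 to 100 kb, 1.70 at 100 to 500 kb and 1.28 over 500 kb. Regions called in all 4 libraries stood at 33.0, 33.8 and 34.4 per Mb in the first 3 classes and thinned out only beyond 100 kb, to 24.6 at 100 to 500 kb and 13.9 over 500 kb. As a share of all regions in its class, flox-only regions stayed between 2.59% and 3.07%. KO-only regions made up 2.71% of all regions at 1 to 10 kb and 3.64% over 500 kb. Each mixed pair also made up a larger share over 500 kb than at 1 to 10 kb. With KO replicate 1 the shares at 1 to 10 kb and over 500 kb were 2.46% and 3.11% (flox 1) and 2.52% and 2.56% (flox 2). With KO replicate 2 they were 2.95% and 3.96% (flox 1) and 2.77% and 3.86% (flox 2). A rise with distance was therefore not particular to KO-only regions.

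The mixed pairs were not alike, and the KO library in them went with their distance. Pairs with KO replicate 1 had 41.4% and 41.7% of their regions over 100 kb from a gene end, and pairs with KO replicate 2 had 44.0% and 45.7%. The same library stood apart among the peaks left after those of flox-only and KO-only regions were taken out. These peaks still include those of the mixed pairs, so this is not a separate observation. Outside flox-only and KO-only regions, the share of intergenic peaks over 100 kb from a gene end was 37.39% and 37.44% in flox and 37.54% and 38.45% in KO replicates 1 and 2. The difference of 0.576 percentage points between the group means (37.4% ± 0.0345 in flox, 38.0% ± 0.640 in KO, SD, n = 2 each) had an exact permutation p of 0.333, two-sided, the smallest that 2 against 2 allow. Within 10 kb of a gene end lay 19.36% and 19.35% of these peaks in flox and 19.19% and 18.89% in KO (exact permutation p = 0.333). Both KO libraries lay on 1 side of both flox libraries, with KO replicate 2 the farther from flox. Without KO replicate 1 the difference was smaller, at 0.2235 points over 100 kb and -0.199 points within 10 kb. Without KO replicate 2 it was -0.255 points over 100 kb and 0.0318 points within 10 kb, turned in both. In each of these the KO library that is left loses every peak it shares with no flox library.

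Few flox-only regions were both wide and high scored. With both flox scores at least 100 there were 86 flox-only regions (3.03%), against 114 KO-only regions and 42 to 114 of the mixed pairs. Of these 86, 12 were at least 1500 bp wide, against 9 of the KO-only regions and 2 to 7 of the mixed pairs, with both bounds chosen after the values were seen. Of the 12, 11 lay within 100 kb of a gene end, against 5 of the 9 KO-only regions. In the mixed pairs 6 of 7, 3 of 3, 2 of 2 and 2 of 3 such regions lay within 100 kb, and of the constant regions 4634 of 6245, so lying near genes does not set the flox-only ones apart.

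**Figure D2:**
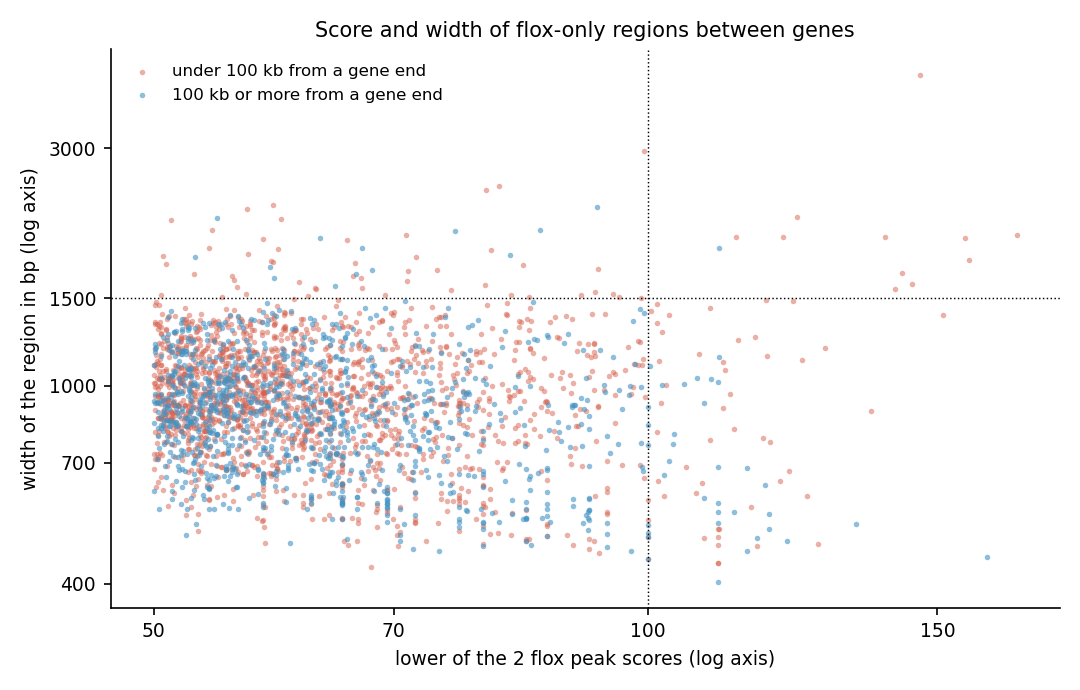
Each of the 2834 flox-only regions between genes by the lower of its 2 flox peak scores (x axis, log) and its width in bp (y axis, log), coloured by distance to a gene end. Dotted lines mark a score of 100 and a width of 1500 bp; of the 12 regions beyond both lines, 11 lie under 100 kb from a gene end.

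The highest ranked of all, by the lower score, lay between Rpn1, a subunit of the oligosaccharyltransferase, and Gata2, a transcription factor gene of blood stem and progenitor cells (chr6:88115937-88117942). Its peaks scored 197.82 and 167.63 in the flox libraries, with 1620 and 1883 bp called. Distal enhancers on the Rpn1 side of Gata2 are known to drive it in progenitors and are moved by an inversion in human myeloid leukaemia. A region of this set at chr4:9079765-9081551 lay 64087 bp from Clvs1 and scored 210.74 and 156.73. Near Ahi1, a gene of the primary cilium, the region at chr10:20906964-20908946 scored 173.48 and 155.86. The widest of all flox-only regions (4219 bp, chr17:87952313-87956531, scores 218.86 and 146.36) lay 20628 bp from the mismatch repair gene Msh6. In all 4 the higher score was that of flox replicate 1.

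The regions next in width after that of Msh6 were weaker in 1 library. They were a region of 2965 bp near Coq2, an enzyme gene of ubiquinone synthesis (99.36 and 107.64), and one of 2514 bp near the DNA repair gene Ercc1 (81.08 and 162.8). A region of 2474 bp lay 19637 bp from Lif, a cytokine gene of the IL-6 family (79.66 and 153.29), and one of 2305 bp lay 31427 bp from the collagen gene Col6a3 (59.09 and 84.01). In these 4 flox replicate 2 was the higher.

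Of the remaining 8 regions that were wide and high scored, the one 6366 bp from Cnr2, a cannabinoid receptor gene of immune cells, scored 144.69 and 183.56. Near Noxa1, an activator of the NADPH oxidase, the scores were 219.52 and 142.69, and near Irf8, a transcription factor gene of monocyte development, 141.31 and 207.98. Beside the DNA helicase gene Blm they were 124.57 and 123.26. A region 77435 bp from Cebpb, a transcription factor gene of myeloid cells, scored 113.1 and 125.16. Near Ppp1r3b, which targets a phosphatase to glycogen, they were 190.16 and 110.4, and this region covers the start window of the lncRNA gene Gm34597 printed above. The other two lay beside 4930503B20Rik (156.38 and 139.45) and Rpn1 (120.76 and 176.37). Neither flox library was the higher throughout.

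**Figure D3:**
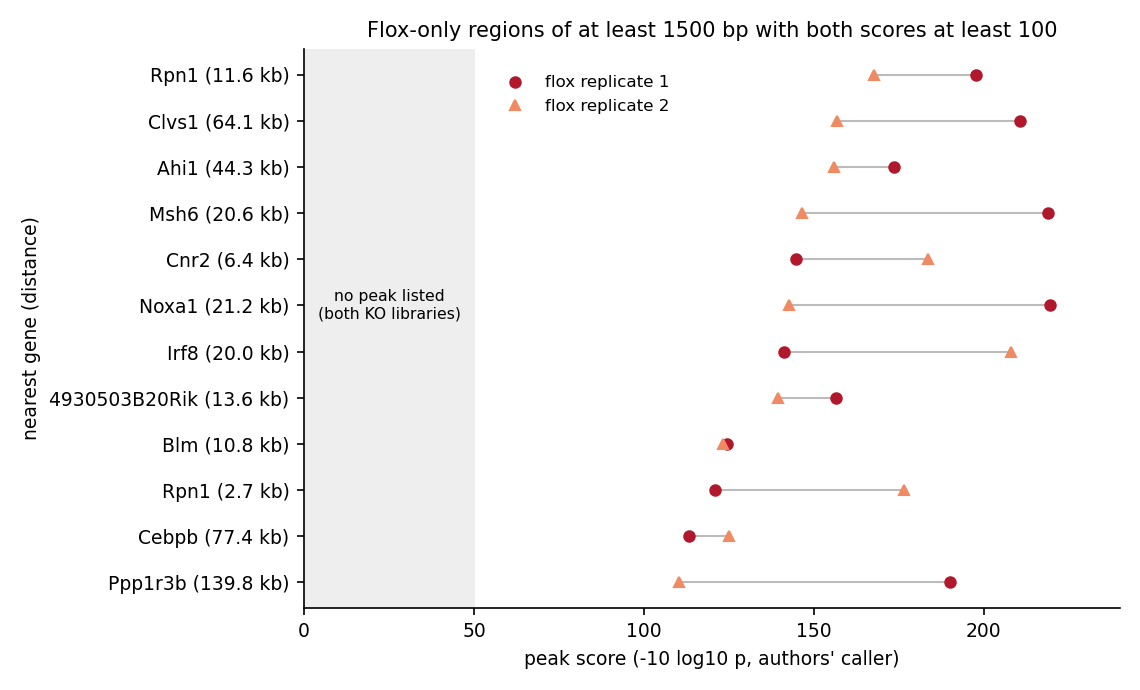
Peak scores (x axis) in flox replicate 1 (circles) and replicate 2 (triangles) of the 12 flox-only regions of at least 1500 bp with both scores at least 100, by nearest gene and distance (y axis). The grey band is the range under 50 in which the lists hold no peak; neither KO library has a peak at these 12 regions.

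At some of these regions a KO peak stood close by. The distance to the nearest KO peak was 76 bp at Cnr2, 278 bp at Cebpb, 329 bp at Ahi1 and 549 bp at the first Rpn1 region, and 13860 bp at Msh6. Over all flox-only regions, 211 (7.45%) had a KO peak within 500 bp, and the median gap was 4491 bp. The share was 7.02% for KO-only regions and their flox peaks, and 6.87% to 8.64% for the mixed pairs. Of the 86 regions with both scores at least 100, 7 had a KO peak within 500 bp. Whether such regions are shoulders of a peak shared by both groups was not tested.

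The neighbourhoods of Gata2, Irf8 and Cebpb are described because they hold regions named above, so the absence of KO-only regions from a stretch is no measure of how common this is. The stretch from Rpn1 to Gata2 held 13 regions over 0.0886 Mb, of which 3 were flox-only, 6 were called in all 4 libraries and 0 were KO-only. The 3 flox-only regions lay 85898, 76952 and 14612 bp from the near end of Gata2, and the last scored 67.85 and 74.19. Between the first 2 stood a region called in all 4 libraries (chr6:88114232-88115737), which scored 464.29 and 283.75 in the flox libraries and 499.34 and 322.74 in those of KO cells. The strongest peak of this stretch was therefore listed in both groups, and 2 of the flox-only regions flanked it. On the other side of the gene, 697 bp from its end, a further flox-only region scored 60.06 and 55.61.

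In the stretch of 0.0621 Mb from Cox4i1 to Irf8, 2 of 10 regions were flox-only, 4 were called in all 4 libraries and 0 were KO-only. One of the flox-only regions lay 20037 bp from Irf8 (chr8:120715539-120717103). The other, at chr8:120689110-120690060, scored 67.96 and 110.37. Beyond the far end of Irf8, toward Foxf1, 1 of 61 regions was flox-only, 1 was KO-only and 41 were called in all 4 libraries. From Cebpb to Ptpn1, a phosphatase gene that restrains cytokine signalling, 2 of 55 regions were flox-only, 23 were called in all 4 libraries and 0 were KO-only. These 2 lay 71476 and 77435 bp from Cebpb, and the nearer scored 65.51 and 110.99. More regions of this stretch were called in flox replicate 2 alone than in any other single library alone. Such regions also stood beside the flox-only ones, at chr2:167763169-167764679 (score 73.84) and chr2:167769033-167769903 (68.12).

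The stretches with most flox-only regions were long ones, and 5 had 9 each. From Id2 to Rnf144a, 96 regions over 1.21 Mb included 9 flox-only, 5 KO-only and 29 constant regions. Id2 encodes an inhibitor of E proteins that acts in myeloid and lymphoid development. Counted by nearest gene, 63 regions belonged to Id2, of which 9 were flox-only, 889 to 478255 bp away, and 1 was KO-only. These 9 are not the 9 of the stretch. The one at 889 bp lay on the other side of Id2, toward Kidins220, and 1 in the stretch was nearer to Rnf144a. The highest ranked of the 9 nearest to Id2 (chr12:25239576-25241048) scored 131.47 and 85.1, and the lowest 50.54 and 52.21. From Cd83, a surface protein gene of activated immune cells, to Jarid2, a partner of Polycomb repressive complex 2, 104 regions over 0.928 Mb included 9 flox-only and 4 KO-only regions. Beside cadherin genes, the stretch between Cdh6 and Cdh9 had 9 flox-only and 5 KO-only of 188 regions. That between Cdh18 and Basp1 had 9 flox-only and 4 KO-only of 108. The fifth, on chromosome 18, had 9 flox-only and 12 KO-only regions among 274.

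**Figure D4:**
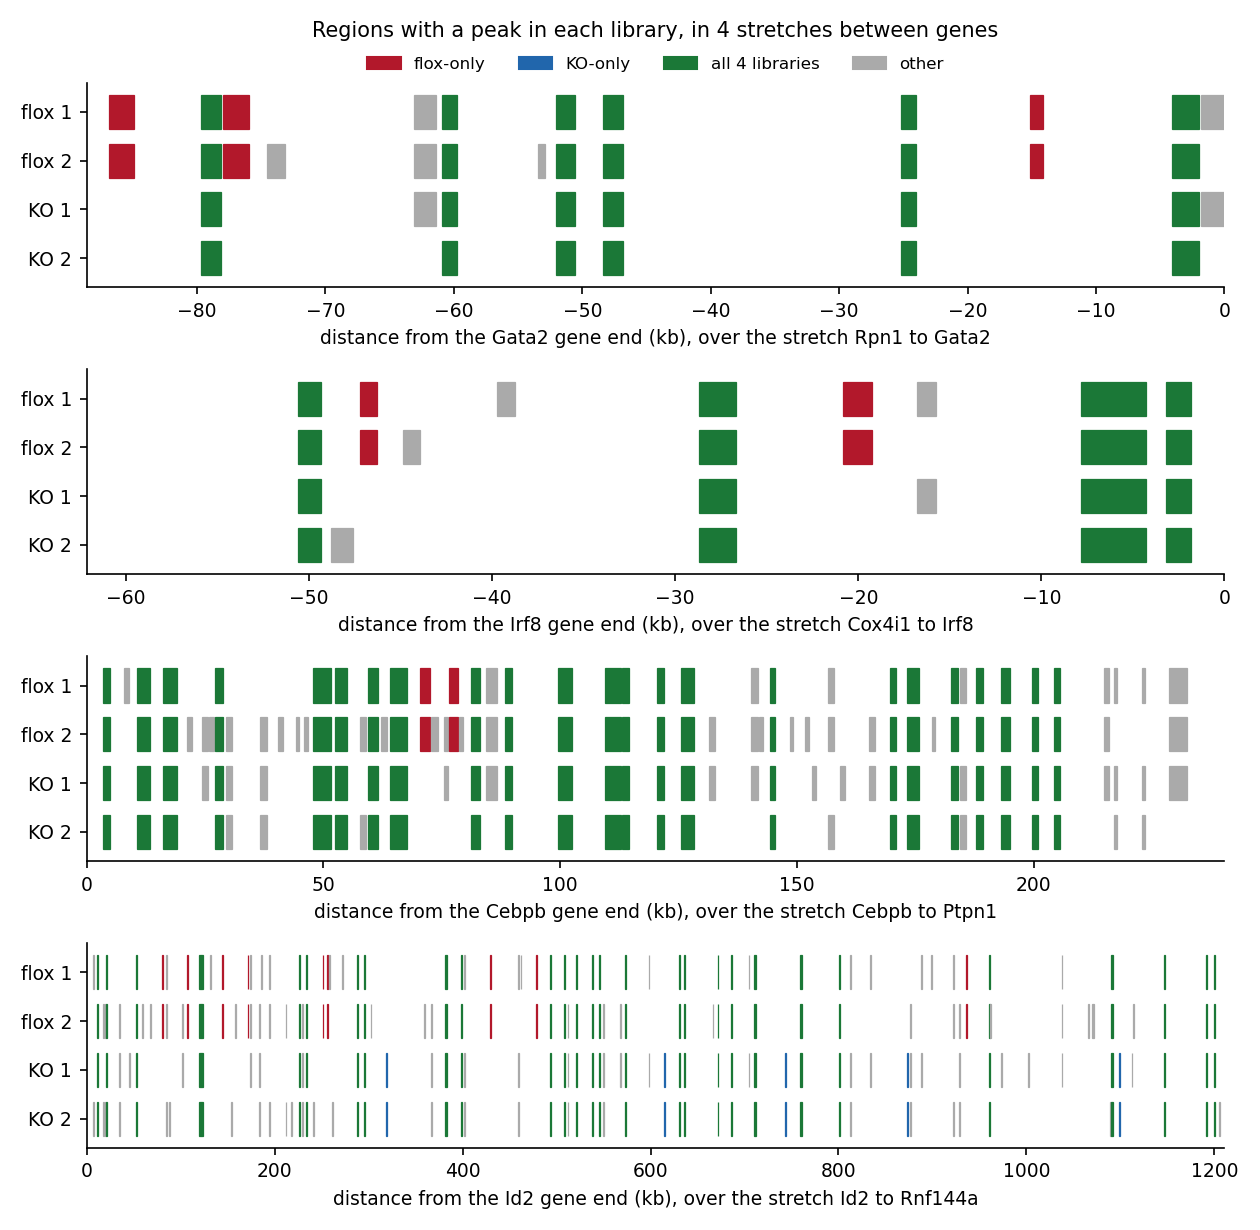
Regions with a peak in each of the 4 libraries (rows) in 4 stretches between neighbouring genes, by distance in kb from the end of Gata2, Irf8, Cebpb and Id2 (x axes); a bar spans the merged region. Red bars are flox-only, blue KO-only, green called in all 4 libraries and grey any other pattern; the first 3 stretches hold 3, 2 and 2 flox-only and no KO-only regions.

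Most stretches with a flox-only region held only 1. The regions fell in 1932 of the 11305 stretches that held a region, and 1435 of those had exactly 1. A KO-only region lay in 806 of the 1932 (41.7%). A second flox-only region within 25 kb was found for 9.42% of them, against 11.8% for KO-only regions and 7.87% to 11.9% for the mixed pairs. The median gap to the nearest region called in all 4 libraries was 10178 bp, against 11514 bp for KO-only regions and 10539 to 11189 bp for the mixed pairs. By chromosome, flox-only regions made up 2.35% (chromosome 18) to 3.37% (chromosome 7) of regions between genes. The midpoint lay inside a lncRNA gene for 388 flox-only regions (13.7%), against 12.8% of KO-only regions and 12.6% to 14.1% of the mixed pairs.

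Close to gene ends, the 3 highest ranked flox-only regions, near Clcn3, Polr3b and Ppm1a, were 1487, 1335 and 812 bp wide. The region 885 bp from Clcn3, an endosomal chloride and proton exchanger gene, scored 123.9 and 117.96 (chr8:60908761-60910247). Near Polr3b, a subunit of RNA polymerase III, the scores were 101.31 and 147.54 at a distance of 253 bp. At Ppm1a, a protein phosphatase gene, they were 87.58 and 133.75 at 182 bp. From 1 to 10 kb, Gpat3, an enzyme gene of triglyceride synthesis, and Ankdd1a followed Cnr2, with 136.61 and 179.73 and with 151.05 and 124.

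Far from genes the highest ranked regions were narrow. Over 500 kb from a gene end they lay nearest to Lrfn5, a synaptic adhesion gene (453 bp wide, scores 162.18 and 160.88), Immp2l, a mitochondrial peptidase gene (528 bp, 135.51 and 133.75), and Slc16a7, a monocarboxylate transporter gene (552 bp, 118.54 and 194.81). At 100 to 500 kb the first 3 were 487, 516 and 630 bp wide, near Megf9, 4930544G11Rik and the adhesion gene Cadm2. Of the regions with both scores at least 100, 7 of 8 over 500 kb were under 700 bp wide, against 15 of 40 at 10 to 100 kb and 3 of 15 at 1 to 10 kb. Narrow peaks over 500 kb away were also most of those of the mixed pairs (8 of 10, 9 of 14, 3 of 3 and 9 of 15) and fewer of the KO-only regions (7 of 17). The median width of all flox-only regions fell less, from 954 bp at 1 to 10 kb to 864 bp over 500 kb.

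By nearest gene, flox-only regions were counted over 11 gene lists, and the counts were small. Genes of myeloid differentiation were nearest to 23 flox-only regions (0.812%), against 10 KO-only regions (0.305%), 15 to 19 of the mixed pairs (0.444% to 0.668%) and 0.468% of all regions between genes. Id2 alone gave 9 of the 23, and without it 14 were left (0.494%). Irf8, Cebpb and Zeb2, a repressor gene of myeloid and lymphoid cells, had 2 each, of 32, 32 and 126 regions nearest to them. KO-only regions nearest to these genes numbered 0, 0 and 5, so Zeb2 had more KO-only than flox-only regions. Both Zeb2 regions were over 500 kb away, and the higher ranked scored 79.3 and 170.23.

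Leukaemia tumour suppressors were nearest to 13 flox-only regions (0.459%), against 5 KO-only regions, 4 to 8 of the mixed pairs (0.124% to 0.319%) and 0.236% of all regions. Dusp6, which encodes a phosphatase that switches off ERK, had 2, at 118427 and 216698 bp. Bcl2l11, the gene of the cell death protein BIM, had 1 flox-only region with scores of 90.67 and 90.52 and 2 KO-only regions, of 26 nearest to it.

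Genes of cytokine and JAK-STAT signalling were nearest to 7 flox-only regions (0.247%), against 4 KO-only regions (0.122%), 2 to 7 of the mixed pairs (0.0619% to 0.260%) and 0.153% of all regions. Of the 7, 3 belonged to Jak2, a kinase bound to cytokine receptors. They lay 21895, 10020 and 2934 bp from 1 end of Jak2, toward Rcl1. Their scores were 54.45 and 101.27, 58.28 and 200.03, and 60.87 and 63.49. In all 3 flox replicate 1 was below its median of 68.0 at flox-only regions, and in the first it was under 55. Of the 7 regions between genes nearest to Jak2, 3 were flox-only, 1 was called in all 4 libraries and 0 were KO-only. Il17ra, Cish, a feedback inhibitor of STAT5, and Jak1 had 1 each, at 8717, 1604 and 3011 bp.

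Stem and progenitor regulators were nearest to 14 flox-only regions (0.494%) and to 20 KO-only regions (0.611%), against 9 to 21 of the mixed pairs (0.359% to 0.780%) and 0.525% of all regions. Myc, a growth-promoting transcription factor gene, had 2 flox-only and 5 KO-only regions, the higher ranked flox-only one 53647 bp away with scores of 73.9 and 135.17. Ikzf2, a gene of the Ikaros family, had 1 flox-only region of 23 (97.23 and 153.47). At Myb, chosen after its values were seen, 1 region 39824 bp away on the Hbs1l side scored 181.81 and 84.68. Partners and targets of AML1-ETO were nearest to 5 flox-only (0.176%) and 11 KO-only regions (0.336%), both inside the range of the mixed pairs (4 to 18 regions, 0.149% to 0.533%), with 0.282% of all regions. Cbfa2t3, an ETO family corepressor gene, had 2 of the 5, at 9900 and 18884 bp, and KO replicate 1 had a peak 230 bp from the second. At Runx1, which supplies the AML1 part of the fusion, 1 flox-only region 11065 bp away scored 54.33 and 76.88. It was likewise named after its values were seen.

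In the other lists, lymphoid genes were nearest to 12 flox-only (0.423%) and 14 KO-only regions, against 10 to 18 of the mixed pairs and 0.594% of all regions. Bcl11b had 3 flox-only and 3 KO-only of 62 regions, and Gata3 had 3 and 4 of 110. Genes of the erythroid, megakaryocyte and mast lineages had 2 flox-only (0.0706%) and 6 KO-only regions, against 1 to 5 of the mixed pairs and 0.0911% of all regions. Writers and oxidases of 5-methylcytosine had 1 flox-only (0.0353%) and 6 KO-only regions, against 1 to 3 of the mixed pairs and 0.0901% of all regions. The flox-only one lay 18357 bp from Tet2 itself, with scores of 85.54 and 58.9. Of the 20 regions nearest to Tet2, 2 were KO-only and 6 were constant. Cell cycle and cell death genes had 11 flox-only regions (0.388%, all regions 0.190%), each at another gene, against 6 KO-only regions and 1 to 5 of the mixed pairs. Housekeeping genes had 3 flox-only regions (0.106%), all at Ywhaz, and 1 KO-only region, against 0 to 3 of the mixed pairs and 0.0426% of all regions. Neural genes, many of them in gene-poor parts of the genome, were nearest to 53 flox-only (1.87%) and 78 KO-only regions (2.38%), against 2.25% to 2.88% of the mixed pairs and 2.17% of all regions. Among them Cdh9, a cadherin gene, had 6 flox-only and 6 KO-only of the 128 regions nearest to it. The protocadherin gene Pcdh9 had 5 and 1 of 145. Of all regions between genes, 2.75% were flox-only and 3.17% KO-only. The 7 lists of blood genes together were nearest to 75 flox-only regions (2.65%), against 2.14% of KO-only regions, 1.98% to 2.56% of the mixed pairs and 2.30% of all regions.

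**Figure D5:**
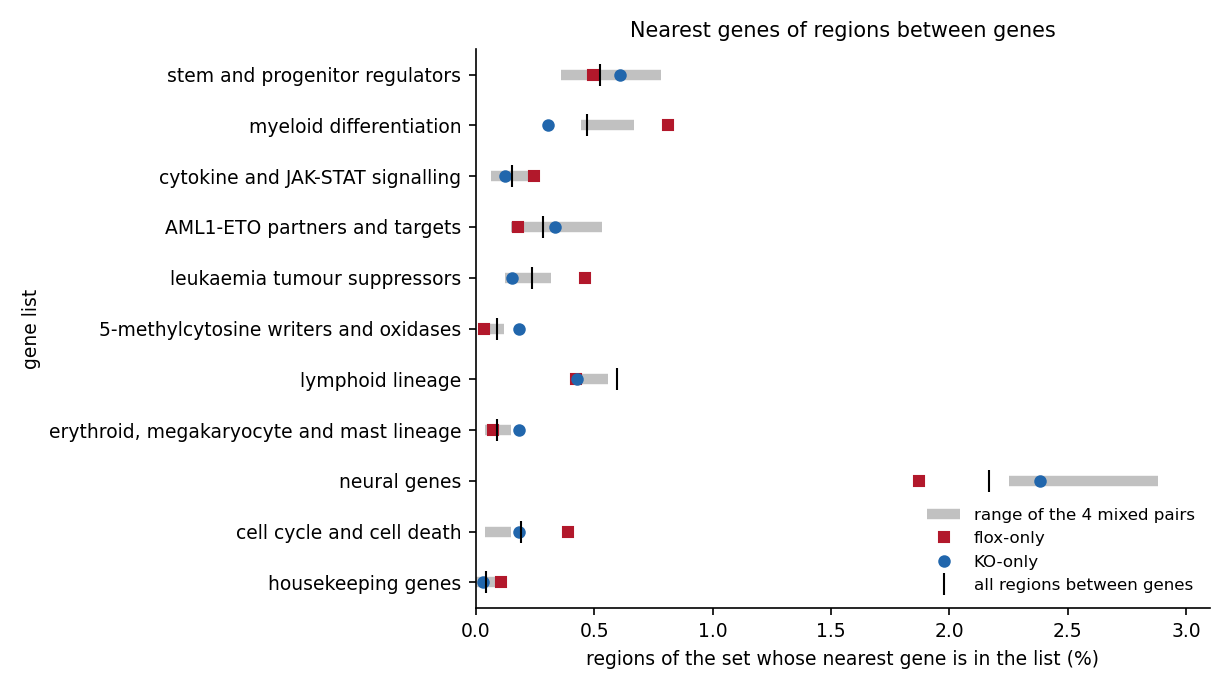
Share of regions between genes whose nearest gene is in each of 11 lists (x axis, percent of the set), for flox-only (red squares) and KO-only regions (blue circles), with the range of the 4 mixed pairs (grey bars) and all regions between genes (black ticks). Flox-only shares are above the mixed range for myeloid genes (0.812%), tumour suppressors (0.459%), cell cycle and cell death genes (0.388%) and housekeeping genes (0.106%), and below it for neural genes (1.87%).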

How the data were processed

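5hmC immunoprecipitation libraries of 2 flox and 2 KO samples were used, grouped by their titles. Neither the IgG control nor the input was used. Per the submitters' processing notes, the tools were CASAVA 1.8, Bowtie and MACS 1.4 and the build GRCm38 (mm10). Peak calling settings, the control in them and duplicate handling were not given in the sources used here. Start and end of each library's peaks were deposited in bp. The deposited score equals the negative log10 of the deposited p-value times 10, to within 0.02, in all peaks but 1. Scores depend on depth, which was unknown.

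Peaks were merged with Python 3.11.15 (pandas 2.3.3, numpy 2.4.6), and bedtools 2.31.1 gave the same 174070 regions. Genes were 20665 autosomal protein-coding spans of RefSeq on GRCm38. Distance ran from the region's midpoint to the nearest gene end, and coordinates count from 1. Exact permutation tests used scipy 1.17.1. The procedure was run on simulated lists with 200 planted flox-only regions, of which 200 were found. They were planted in both flox lists, away from a background of regions called in all 4 libraries. The simulated lists held no mixed pairs, so this checks the steps and not how reliable the real regions are. No genome sequence was used, only the RefSeq start windows.

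Regions were ranked by the lower flox score. Named were the 5 widest, the 3 top ranked per distance class, up to 4 genes per list with most members, and the 5 fullest stretches. Some regions this rule names, among them those on chromosome 18, are not reported here. Members and lists were chosen with earlier results of these data known. Alternatives changed the peaks used, merging, overlap, the meaning of between genes, the distance and the libraries.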

Additional observations from a re-analysis of the deposited data

How the results depend on the processing

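The number of flox-only regions depended on the peaks used, with 1429 when only peaks scoring at least 100 counted and 1505 with the 50000 highest scored peaks of each list, where a region can count as absent from KO although a lower peak is listed there. Over 100 kb from a gene end lay 33.9% and 34.2% of them, against 37.6% of all 2834. With lncRNA spans counted as genes, an alternative chosen after seeing the data, 31.9% lay within 10 kb and 21.8% over 100 kb, because more gene ends are counted. Leaving out 1 library made the rule looser and gave 6459 to 9799 regions, with 19.6% to 20.2% within 10 kb, 37.9% to 40.1% over 100 kb, a median width of 748 to 947 bp and 2.24% to 2.59% near blood genes. The other settings left the shares within 10 kb and over 100 kb inside their intervals. Shares of the KO-only regions and mixed pairs were not computed again under any alternative. Whether the contrast of flox-only regions with the mixed pairs holds there was therefore not tested.

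The difference between KO and flox libraries in the other peaks was -0.312 to 0.0318 percentage points within 10 kb and -0.255 to 0.658 over 100 kb when 1 library was left out. With only peaks scoring at least 100, the 2 groups overlapped (exact permutation p = 0.667 for both). The differences turned to 0.0318 and -0.255 without KO replicate 2, where the remaining KO library loses all peaks of its own by construction. With the replicate number as a block, the differences stayed at -0.314 and 0.576 (exact sign-flip p = 0.5, the smallest that 2 pairs allow). Same-numbered libraries did not deviate together over constant regions (correlation 0.0173), and the labels do not tie the numbers to shared cultures, so the numbers were not taken to pair the samples. What depth limits was not measured, since the lists hold no read numbers.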

Other observations

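Some stretches between neighbouring genes held several flox-only regions and no KO-only region. They were chosen after their values were seen, by a bound of 4 flox-only regions. From Lcorl, a gene associated with body size, to the axon guidance gene Slit2, 6 of 111 regions were flox-only, 40 were called in all 4 libraries and 0 were KO-only. From Irf2bp2, a transcriptional corepressor gene, to Tomm20, a subunit of the mitochondrial import receptor, 4 of 69 regions over 0.337 Mb were flox-only and 36 were constant. From Slc7a11, the cystine transporter gene, to Noct, 4 of 60 regions were flox-only, and from Klf12 to Prr30 4 of 53. In all, 8 stretches met this bound, and 21 stretches met the reverse one, with at least 4 KO-only and 0 flox-only regions.

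The region at chr15:78321145-78322006, 4225 bp from Csf2rb, the shared receptor subunit of IL-3, IL-5 and GM-CSF, had unequal scores, with 239.39 in flox replicate 1 and 60.36 in flox replicate 2. This region was likewise chosen with its values known.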
